A study of Mus musculus with 12 samples.

Results

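The change from a drug-sensitive leukaemia line to its resistant derivative was measured in 2 independent pairs of lines, and the genes described here are those that changed in one direction in both. Of 18193 genes, 1053 had such a shared change: 539 rose, which is 2.96% of all genes, and 514 fell, which is 2.83%. A gene was counted when the average of the 2 changes passed an adjusted p of 0.05 in limma, a linear model fitted over all probe sets, and when its fitted change had one sign in each pair. The average can pass through a large change in 1 pair, so the stricter group of genes that passed in each pair alone is given beside it. That group held 107 genes, or 0.588% of all, of which 59 rose and 48 fell; without array B of B140P it held 66.

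All 4 lines are murine acute myeloid leukaemia cells of BXH-2 origin. BXH-2 mice are inbred animals in which retroviral insertions give rise to myeloid leukaemia. B117P and B140P are the parental lines, sensitive to Ara-C (cytarabine). The derivatives, B117H of the former and B140H of the latter, are labelled as highly resistant to the drug. Each line was measured on 3 one-colour arrays, lettered A, B and C, for 12 in all. The same culture texts, on growth without Ara-C and on exposure to rising amounts of it, stand with every sample, so they do not set parental apart from resistant cells. Each resistant state is represented by 1 derived line, and no label tells whether the 3 arrays of a line are separate cultures. The p-values therefore cover the spread between these samples, which may be technical. The 2 pairs share no arrays.

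Ara-C is an analogue of deoxycytidine. It enters the cell through nucleoside transporters, is phosphorylated stepwise to its triphosphate, and then stops DNA synthesis when it is built into the growing strand. Deoxycytidine kinase adds the first phosphate, deaminases and phosphatases remove active drug, and loss of the kinase is a well-known route to resistance in cultured cells.

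Arrays of one line correlated at 0.988 to 0.997 across probe sets. Array B of B140H had the lowest correlations with its own line, 0.988 with each of the other two, and without it 1071 genes had a shared change and 106 passed in each pair. Ptprc, the pan-leukocyte phosphatase, and Spi1, the transcription factor of the myeloid lineage, were bright in all lines, with mean log2 levels of 13.1 to 13.7 and 11.2 to 11.5. The myeloid genes Itgam and Csf3r were much dimmer. Itgam lay at 7.14 in B117P, 7.95 in B117H, 6.30 in B140P and 6.02 in B140H, and Csf3r at 7.15 to 7.90. The granule genes Mpo and Lyz2 were bright in B117P, at 14.6 and 11.4, and far lower in B140P, at 9.54 and 6.75. B140P also carried Siglech, a gene of plasmacytoid dendritic cells, at 10.3, and Cd79a, a part of the B cell receptor, at 8.25. The other defining markers measured for B cells, dendritic cells and antigen presentation lay at like levels in both parental lines. Pax5 lay at 7.44 in B140P and 7.42 in B117P, Zbtb46 at 6.91 and 7.03, and Ciita at 6.50 and 6.37. Defining markers of other cell types without a called average change were the T cell genes Cd3g and Cd3e at up to 5.30 and 7.72, Ncr1 of NK cells at up to 6.72, the erythroid genes Gata1 and Klf1 at up to 5.997 and 7.17, the stromal genes Col1a1 and Col1a2 at up to 6.36 and 6.96, and the epithelial Epcam at up to 8.42. The median of all probe sets was 6.94. Of 22 erythroid and megakaryocyte markers 1 rose and 1 fell in common, and of 18 stromal and endothelial markers 1 rose and 0 fell. Of all genes 2.96% rose and 2.83% fell.

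Most genes called in one pair were not called in the other. In the B117 pair 1712 genes passed (9.41%), and in the B140 pair 1194 (6.56%). The 107 genes that passed in both with one direction were 6.25% of the former and 8.96% of the latter. A further 166 passed in both pairs in opposite directions, and over all genes 45.49% had one sign in both pairs.

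Among the 1053 shared genes, 827 passed in 1 pair alone, 495 of them in the B117 pair and 332 in the B140 pair, and 119 passed in neither pair alone. The median average change was 0.41 for genes that rose and -0.45 for genes that fell, on the log2 scale. The smaller of the 2 pair changes had a median size of 0.21, and in 223 genes it was under 0.1. So many of the shared changes were small in one of the lines. At least 2-fold changes in both pairs were found for 4 genes that rose and 6 that fell. The difference between the pairs was itself called for 336 of the 1053 genes, and for 14 of the 107.

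In 711 genes (3.91%) the resistant arrays lay wholly on one side of the parental arrays in both pairs, in one direction, while in 997 they did so in opposite directions. Of the shared genes, 510 were among the former, 282 upward and 228 downward. When array medians were set equal, 41.0% of 990 shared genes rose, against 51.2% of the 1053, so the balance of rises and falls rests on the scaling.

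**Figure D1:**
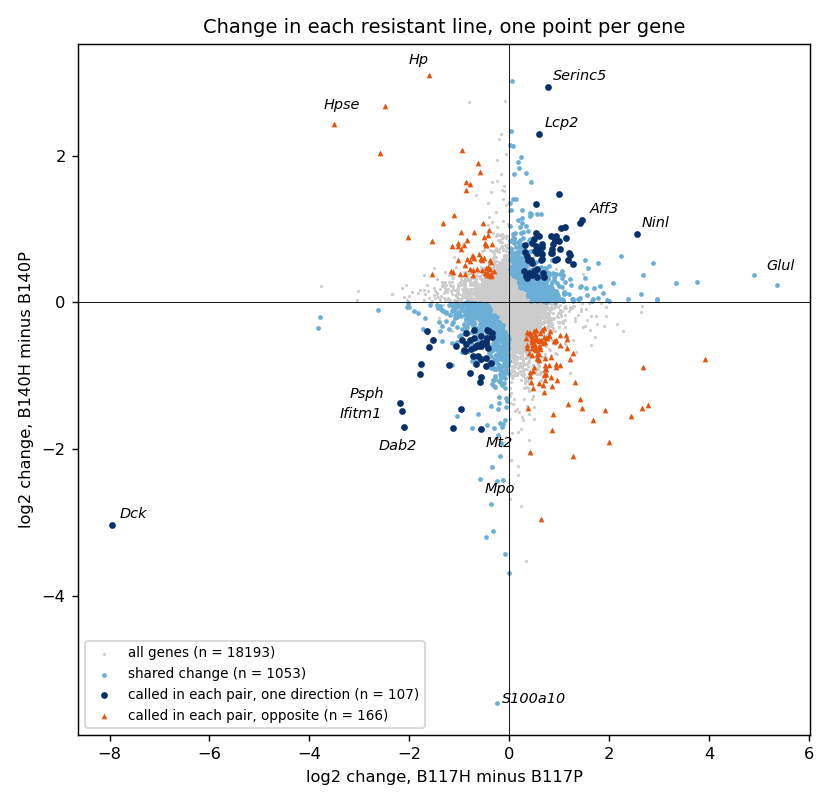
Log2 change of every gene in the B117 pair (x axis) and in the B140 pair (y axis), 1 point per gene, with the 1053 shared genes, the 107 that passed in each pair in one direction and the 166 that passed in opposite directions marked. Dck lies alone at -7.96 and -3.04, and many shared genes lie near an axis.

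Dck, which encodes deoxycytidine kinase, had the largest average fall and the largest smaller change of the pairs. On the brightest of its 3 probe sets it measured 2287, 3158 and 2935 intensity units in B117P against 9.39, 11.2 and 9.91 in B117H. In B140P it measured 2337, 2481 and 2576, against 305, 281 and 309 in B140H. The resistant arrays were far below the parental ones in each pair. B117H lay near the lowest intensity on any array (7.65), and B140H lay above it. The average change was -5.50 (SE 0.08, adjusted p = 1.03e-12). The deposit has no detection calls and B117H was near the floor, so the sizes of the B117 change and of the average are not exact. The next probe set changed by -6.43 and -2.90, and the dimmest by -0.12 and -1.41, so that the latter was not called in the B117 pair (adjusted p = 0.913).

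The uptake and activation list for Ara-C held 14 measured genes, with 1 shared rise and 1 shared fall, against 2.96% and 2.83% of all genes. Dguok, the mitochondrial kinase of purine deoxynucleosides, was the one that rose. Its 6 resistant arrays read 709 to 823 and its 6 parental arrays 508 to 623. It passed in each pair, with changes of 0.49 and 0.43 (average adjusted p = 0.00119). This call ended without all arrays lettered B (adjusted p = 0.051) or C (0.0899).

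The transporters of the list did not pass: Slc29a1 changed by 0.18 and 0.38, Slc29a2 by -0.39 and -0.02, Slc29a3 by -0.11 and -0.11, and Slc28a3 by -0.06 and -0.04. Nor did the kinases of later steps, Cmpk1 (-0.04 and 0.15), Cmpk2 (0.04 and -0.29), Nme1 (-0.09 and -0.04), Nme2 (-0.08 and -0.04), Nme4 (-0.13 and -0.30) and Nme6 (-0.40 and 0.14). The thymidine kinase genes Tk1 (-0.38 and 0.14) and Tk2 (0.34 and 0.09) also missed the threshold.

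The list of inactivating enzymes also held 14 measured genes, with 0 shared rises and 1 shared fall (7.14%, against 2.83% of all genes). The fall was that of Dctd, which deaminates deoxycytidylate, at 801 to 842 intensity units in B117P, 566 to 717 in B117H, 1004 to 1197 in B140P and 876 to 966 in B140H. Its average change of -0.29 (adjusted p = 0.0376) passed in neither pair alone and was lost in 9 of the 12 fits that left out a single array. Samhd1, which hydrolyses deoxynucleoside triphosphates, changed by 0.22 and 0.21 with arrays that did not overlap in either pair, and just missed (adjusted p = 0.0535). Nt5c3b, a nucleotidase, changed by 0.70 and 0.10 (adjusted p = 0.0597).

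The other members lay further from the threshold. Cda, the cytidine deaminase, changed by 0.04 and 0.18 and Dut, which hydrolyses dUTP, by -0.02 and 0.03. Among the nucleotidases, Nt5c changed by 0.17 and -0.15, Nt5c2 by -0.41 and 0.14, Nt5c3 by 0.09 and -0.05, Nt5e by -0.39 and -0.06, Nt5m by 0.08 and 0.09, and Nt5c1b by 0.03 and 0.07. Apobec1 and Apobec3, cytidine deaminases of nucleic acids, changed by 0.03 and -0.10, and by 0.06 and 0.02, and Dctpp1, a pyrophosphatase, by -0.02 and -0.07.

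Behind Dck, the falls with the largest smaller change were those of Dab2, Ifitm1 and Psph. Dab2, a clathrin adaptor that carries receptors into the cell, measured 5372, 5689 and 6430 in B117P and 1395, 1227 and 1406 in B117H. In the other pair it measured 2126, 1412 and 1577, and then 491, 528 and 531. The fall was 4.34-fold and 3.25-fold, and no difference between the 2 changes was called (adjusted p = 0.284). All 4 probe sets of the gene had a shared fall.

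Ifitm1 encodes an interferon-induced membrane protein that hinders the entry of viruses. It measured 1652, 2513 and 2729 in B117P, 522, 443 and 553 in B117H, 2537, 1890 and 2828 in B140P and 1122, 689.7 and 808 in B140H. The average change was -1.82 (SE 0.15, adjusted p = 1.93e-05). Other interferon response genes did not follow it as a group: of 46 measured, 6 rose (3 without B117H A) and 3 fell in common, with a median change of -0.06 against 0.02 for all genes. The rises were 13.0% of the list and the falls 6.52%, against 2.96% and 2.83% of all genes. Ifitm3 of the same family (-0.81 and -0.27) and the chemokine gene Cxcl10 (-1.35 and -0.53) were the other falls. Ifit2 (0.76 and 0.38), the immunoproteasome subunit Psmb9 (0.56 and 0.35), the signal transducer Stat2 (0.21 and 0.56) and the RNA sensor Ifih1 (0.12 and 0.56) were among the rises.

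Psph encodes phosphoserine phosphatase, which makes serine in the final step of its synthesis. It measured 1130, 1512 and 1310 in B117P and 281, 327 and 255 in B117H, and 1049, 1075 and 1009 in B140P against 454, 348 and 407 in B140H. The resistant arrays were lower in both pairs, by 4.56-fold and 2.60-fold, and the fall was larger in B117H (difference of 0.81, adjusted p = 0.0177). The enzymes before it, Phgdh (-0.22 and -0.61) and Psat1 (-0.28 and -1.002), also had shared falls, which passed in the B140 pair alone. Among 44 genes of the response to unfolded protein and amino acid shortage, 3 rose and these 3 fell. Each count was 6.82% of the list, against 2.96% and 2.83% of all genes. Those that rose were Atf5 (0.68 and 0.58), a transcription factor of amino acid shortage, Ern1 (0.38 and 0.69), a stress sensor of the endoplasmic reticulum, and Cars (0.48 and 0.36), which charges cysteine tRNA.

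**Figure D2:**
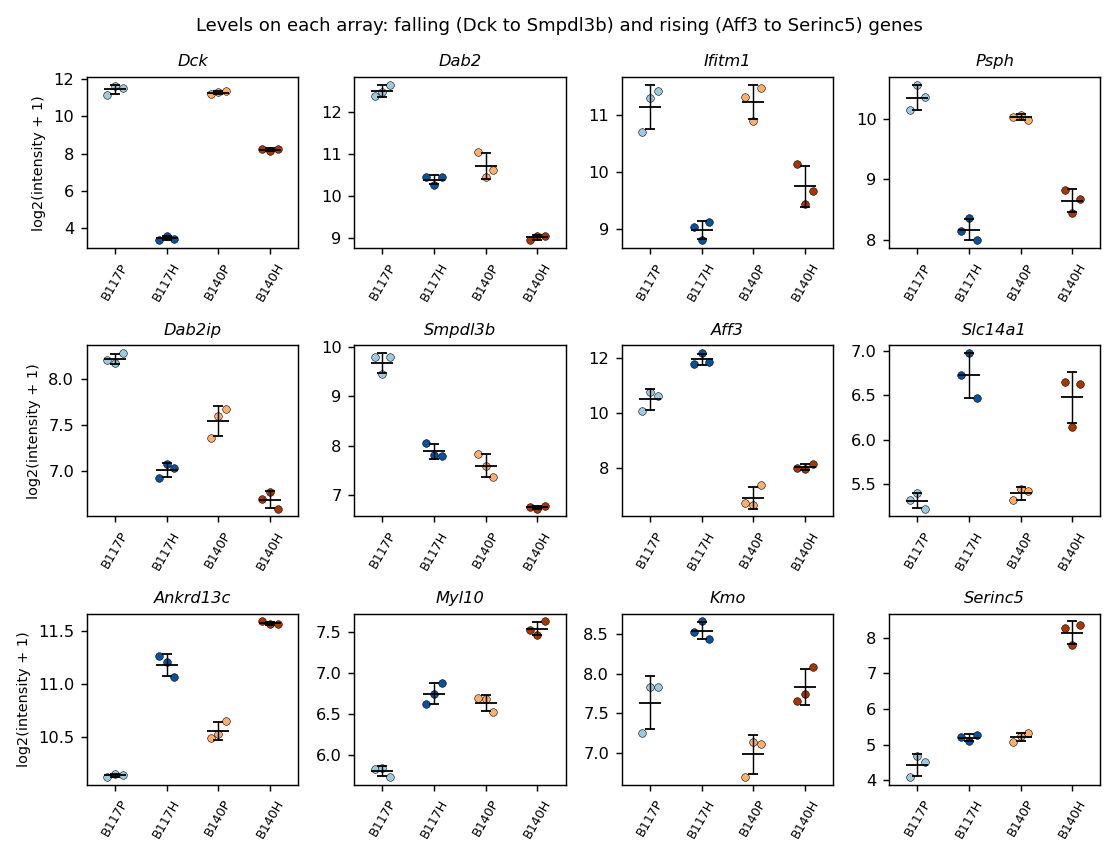
Level of 12 lead genes on each array as log2(intensity + 1), with points for the 3 arrays of each line and a bar for their mean and SD. By the rule that chose these genes, the resistant arrays lie wholly above or wholly below their own parental arrays in both pairs. The level itself can differ widely between the B117 and B140 lines, as for Aff3.

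Several receptor and signalling genes fell in both pairs. Dab2ip, a brake on Ras named for its binding to Dab2, measured 286 to 309 in B117P and 120.3 to 134 in B117H, then 163 to 203 and 95.1 to 108 in the B140 pair. Its other, dimmer probe set missed the threshold (changes of -0.75 and -0.33, adjusted p = 0.0829). Gpr183, a receptor for oxysterols that guides immune cells, changed by -1.05 and -1.55. It passed in the B140 pair alone, and without the C arrays of all 4 lines its average missed the threshold (adjusted p = 0.104). Igfbp4, a secreted binder of insulin-like growth factors, changed by -1.79 and -0.98, and all 6 of its probe sets had a shared fall. Lifr, the receptor of leukaemia inhibitory factor, fell 3.05-fold and 1.52-fold, more in B117H (difference of 0.9997, adjusted p = 0.0157). One of its 3 probe sets changed by -1.09 and 0.14 and so had no shared change.

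Lipid and transport genes formed part of the same ranking. Smpdl3b, a membrane phosphodiesterase, measured 882, 693 and 878 in B117P and 267, 224 and 222 in B117H, against 227, 193 and 164 in B140P and 108, 105 and 109 in B140H. Cds1, which makes the precursor of phosphatidylinositol, changed by -0.79 and -0.97. Abcc4, an efflux pump that accepts nucleotide analogues, measured 4310 to 5298 in B117P, 2908 to 3200 in B117H, 1691 to 2008 in B140P and 1009 to 1047 in B140H. Its average change was -0.75 (adjusted p = 4.63e-05). In the list of ABC transporters 2 of 23 genes rose in common, Abcb4 (0.33 and 1.04) and Abcb10 (0.14 and 0.44), and 3 fell, Abcc4 and the peroxisomal carriers Abcd2 (-0.07 and -1.30) and Abcd3 (-0.16 and -0.52). These shares were 8.70% and 13.0%, against 2.96% and 2.83% of all genes. Averaging a gene's probe sets ended the calls of Abcb10 and Abcd3 (adjusted p = 0.176 and 0.148). Without B117P C the changes of Abcd2 were 0.01 and -1.30, so its fall was no longer shared.

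Of the remaining falls, Serpinb6b, a protease inhibitor, changed by -0.74 and -1.71, and Ets2, a transcription factor, by -0.72 and -0.74. Gpr155, a membrane protein, changed by -0.69 and -0.79, and Rab11fip2, an adaptor of recycling vesicles, by -0.83 and -0.67. The other, dimmer probe sets of Rab11fip2 were not called (adjusted p = 0.0921 and 0.957). The calls of Ets2, Gpr155 and Rab11fip2 ended when the test was set against a fold of 1.2 (adjusted p = 0.0628, 0.164 and 0.173). Ets2 and Gpr155 were lost without all B arrays (0.075 and 0.126) and Rab11fip2 without all C arrays (0.0692). Fkbp11, a prolyl isomerase of the endoplasmic reticulum, changed by -0.97 and -1.46 on its brightest probe set but by -0.12 and -0.01 on the next one, so this fall rests on 1 probe set of 3. Its call ended without the _s_at and _x_at probe sets, whose probes can match several genes (adjusted p = 0.885).

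Aff3, a nuclear protein of lymphoid cells, led the rises. It measured 1081, 1759 and 1594 in B117P and 3568, 4645 and 3748 in B117H, and 105, 99.6 and 166 in B140P against 256, 246 and 286 in B140H. The gene was far dimmer in the B140 lines. It rose 2.74-fold and 2.17-fold, and no difference between the pairs was called (adjusted p = 0.652). Its other probe set, which was dimmer, missed the threshold (changes of 0.72 and 0.07, adjusted p = 0.146).

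The urea transporter gene Slc14a1 went from 36.5 to 41.2 intensity units in B117P to 87.9 to 125 in B117H, and from 39.0 to 42.7 in B140P to 70.01 to 99.7 in B140H. Ninl, which encodes a protein of the centrosome, was near the floor in both parental lines, at 13.9 to 19.1. It reached 96.4 to 126 in B117H and 21.0 to 39.0 in B140H, a rise that was larger in B117H (difference of -1.63, adjusted p = 0.0033). Low values are compressed by the summarisation, so these factors are no exact sizes.

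Serinc5 encodes a membrane protein that lowers the infectivity of retroviruses. It measured 16.1, 24.4 and 21.9 in B117P, 36.1, 33.4 and 38.0 in B117H, 32.8, 36.9 and 39.1 in B140P and 311, 220.5 and 331 in B140H. The rise was 1.71-fold in one pair and 7.64-fold in the other (adjusted p of the difference = 0.000117). Lcp2, an adaptor of immune receptor signalling that was chosen here after its values were seen, rose by 0.60 and 2.29, also more in B140H (difference of 1.69, adjusted p = 0.000326). Myl10, a myosin light chain gene, rose by 0.94 and 0.91, and Fbxo44, a subunit of a ubiquitin ligase, by 0.85 and 0.68. The other, dimmer probe set of Fbxo44 changed by -0.07 and 0.06 and was not called (adjusted p = 0.999).

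Of 18 measured enzymes of the kynurenine route, which breaks down tryptophan, 2 rose and 2 fell in common. Each count was 11.1% of the list, against 2.96% and 2.83% of all genes. Kmo, which hydroxylates kynurenine, measured 151, 226 and 227 in B117P, 369, 403 and 346 in B117H, 103, 140.1 and 137 in B140P and 201, 213 and 270.4 in B140H. It passed in each pair, at 0.91 and 0.84. Haao, which acts further along the same branch, changed by 0.34 and 0.56 (average adjusted p = 0.00438). Kyat3, an aminotransferase that takes kynurenine down another branch, changed by -1.12 and -1.72, from 1636 to 2028 down to 717 to 899.8 intensity units in the B117 pair and from 436 to 573 down to 100.3 to 196 in the B140 pair. The other fall was that of Nmnat3 (-0.30 and -1.14), which makes NAD.

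**Figure D3:**
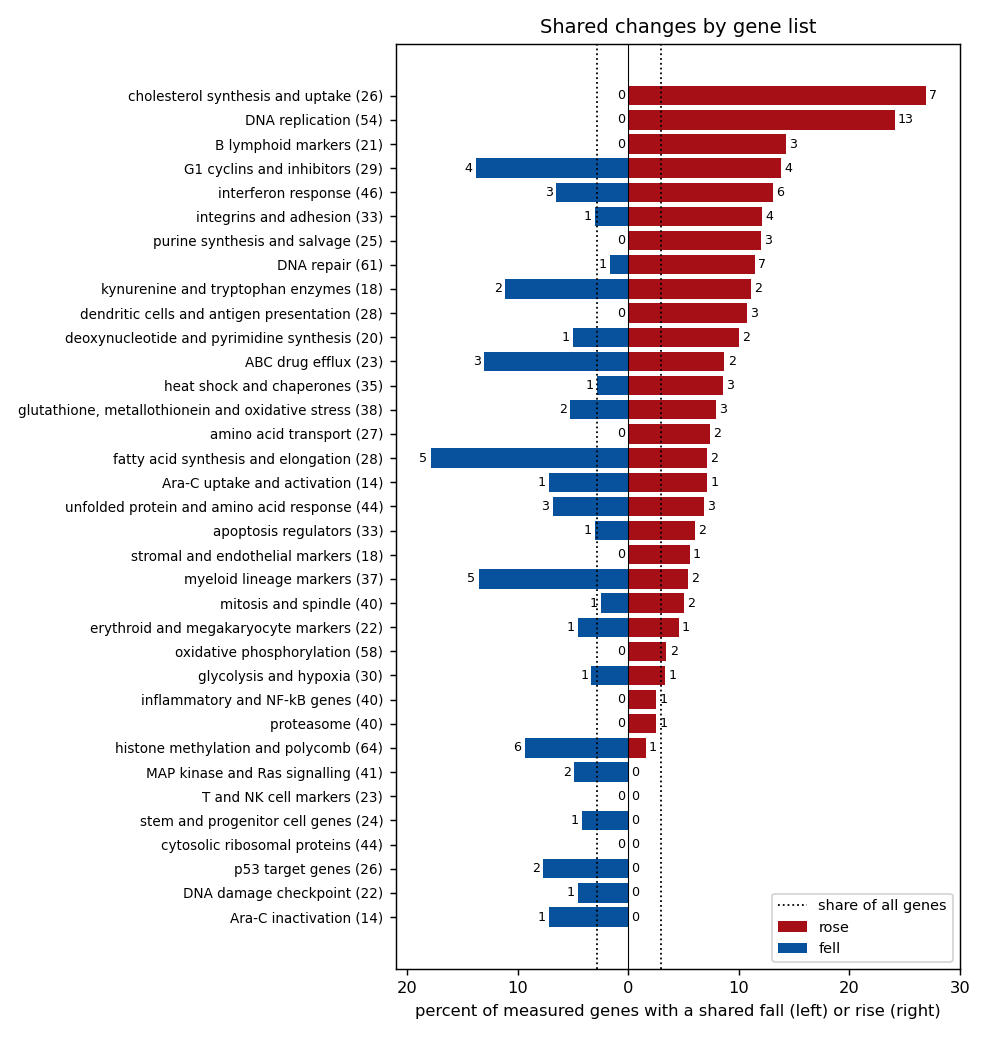
Percent of the measured genes of each list (number in brackets) with a shared rise (right) or a shared fall (left), with the gene counts beside the bars and dotted lines at the shares of all genes, 2.96% and 2.83%. DNA replication (13 and 0) and cholesterol synthesis and uptake (7 and 0) have the highest shares of rises.

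Genes of DNA replication had many small shared rises. Of 54 measured, 13 rose and 0 fell, 24.1% against 2.96% of all genes, and the list's median change was 0.18 against 0.02. The rises were modest, and Rfc5 was the only member that passed in each pair by itself. With a pseudocount of 16 or brighter probe sets only 17 rose, and with a trend and robust prior 18, 3 of them in each pair under each of these settings. With arrays centred on their medians 11 rose and 0 fell, and the count dropped to 5 without all A arrays, 2 without all B arrays and 1 without all C arrays, each with 0 falls and a median of 0.18 to 0.19. With a test against a fold of 1.2 it was 1.

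E2F transcription factors are known to drive many replication genes through a short motif near the start site, so the start regions of the members that rose were searched. The letters TTTGGCGC, TTTCCCGC, TTTGCCGC and TTTCGCGC were looked for on both strands. In windows of 300 bases, which reach from 250 before to 50 after the annotated start, a match stood in 6 of the 11 rising genes that have a window (54.5%). The share was 35.3% (12 of 34) in the other measured replication genes, 3.81% in all measured genes and 2.26% in all 32851 windows. In the 250 bases before the start alone it was 3 of 11 (27.3%), 7 of 34 (20.6%), 3.15% and 1.86%. The motif and these windows were chosen after the values were seen, and a match is a description, not a site. The upstream stretches with a match come from RefSeq (GRCm38.p6) and run 5′ to 3′ on the gene's own strand, with the matching letters in capitals.
Rfc3 (chr5:151651209-151651458, minus strand): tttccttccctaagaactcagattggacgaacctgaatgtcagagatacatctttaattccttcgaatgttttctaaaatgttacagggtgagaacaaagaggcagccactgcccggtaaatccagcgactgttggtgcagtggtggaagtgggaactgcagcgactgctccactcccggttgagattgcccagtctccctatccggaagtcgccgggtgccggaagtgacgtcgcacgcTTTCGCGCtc
Mcm7 (chr5:138171884-138172133, minus strand): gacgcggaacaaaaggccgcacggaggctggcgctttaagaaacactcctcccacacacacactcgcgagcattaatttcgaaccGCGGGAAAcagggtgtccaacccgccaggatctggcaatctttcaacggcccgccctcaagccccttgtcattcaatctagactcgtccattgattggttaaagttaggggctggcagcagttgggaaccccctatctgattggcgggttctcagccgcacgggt
Gins3 (chr8:95633309-95633558, plus strand): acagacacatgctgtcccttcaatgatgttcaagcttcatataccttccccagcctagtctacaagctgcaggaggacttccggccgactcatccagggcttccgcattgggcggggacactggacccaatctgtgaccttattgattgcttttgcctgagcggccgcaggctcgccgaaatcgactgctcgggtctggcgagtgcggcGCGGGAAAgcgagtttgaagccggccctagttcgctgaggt
The match starts 10 bases before the start of Rfc3, 165 before that of Mcm7 and 41 before that of Gins3. In Mcm7 and Gins3 it reads on the opposite strand.

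Timeless, a protein that protects the replication fork, measured 1592, 1860 and 1630 in B117P, 1986, 2427 and 2279 in B117H, 1558, 1939 and 2000.1 in B140P and 2490.2, 3026 and 2639 in B140H. The clamp loader subunits followed, Rfc5 with changes of 0.50 and 0.38 and Rfc3 with 0.51 and 0.35. Clspn, a checkpoint mediator at the fork, changed by 0.43 and 0.33, Mcm3, a subunit of the replicative helicase, by 0.48 and 0.31, and Rpa1, which coats single-stranded DNA, by 0.28 and 0.33. In these 6 genes the resistant arrays lay above the parental arrays in both pairs. Over all genes, 3.91% had arrays apart in both pairs in one direction, upward or downward. The 6 were picked by their smaller pair change, which favours such a gap. The call of Clspn ended with its probe sets averaged (adjusted p = 0.301).

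The other 7 members that rose are named here after their values were seen. Rfc2 (0.24 and 0.94) rose more in B140H (adjusted p of the difference = 0.00357), and Gins3 (0.55 and 0.08) more in B117H (0.0489). Pole (0.71 and 0.21), Prim1 (0.47 and 0.10), Mcm7 (0.23 and 0.45), Mcm8 (0.22 and 0.31) and Mcm10 (0.37 and 0.09) showed no called difference. Rfc2, Rfc3, Rfc5, Mcm7 and Pole lie on chromosome 5, part of which, from Bcl7b to Pms2, had raised medians in the B140 pair, as given below. Lying on this chromosome does not place a gene within that part. Whether their position bears on these rises was not tested.

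Of 61 DNA repair genes 7 rose (11.5% against 2.96% of all genes) and 1 fell, with a median of 0.08. Fanci of the Fanconi pathway for crosslinks passed in each pair (0.45 and 0.37), and Fancd2 (0.26 and 0.31), Fanca (0.27 and 0.30), Brca2 (0.28 and 0.43), Neil3 (0.40 and 0.38) and Nhej1 (0.22 and 0.27) passed in the average. Mre11a, a nuclease of broken ends, was the fall (-0.08 and -0.45). The call of Nhej1 ended without the _s_at and _x_at probe sets (adjusted p = 0.946). Averaging a gene's probe sets ended the calls of Nhej1, Neil3, Fancd2 and Mre11a (adjusted p = 0.17, 0.665, 0.135 and 0.11). With arrays centred on their medians 4 rose and 2 fell. Leaving out B117P C, B117H B, B117H C or B140P A left 4 rises each, and 1 rose without all A arrays and 0 without all B or all C arrays. For the enzymes of deoxynucleotide supply, Rrm2 (0.50 and 0.19) and Tyms (0.67 and 0.16) rose in the average, and Ctps2 (-0.42 and -0.06) fell, of 20 measured. These were 10% and 5% of that list, against 2.96% and 2.83% of all genes.

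Control genes of the cell cycle moved both ways, with 4 rises and 4 falls among 29. Each count was 13.8% of the list, against 2.96% and 2.83% of all genes. The pocket proteins Rbl2 (0.69 and 0.35) and Rbl1 (0.32 and 0.31), which bind E2F factors, had shared rises, as had Ccnd3 (0.14 and 0.56) and E2f6 (0.68 and 0.01). E2f3 (-0.86 and -0.38), Ccnd1 (-0.23 and -0.69), Ccnd2 (-0.45 and -0.16) and Myc (-0.21 and -0.60) had shared falls. Rbl2 passed in each pair. Averaging a gene's probe sets ended the calls of Rbl1, Ccnd3, E2f6 and Ccnd2 (adjusted p = 0.775, 0.308, 0.909 and 0.0649).

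Small nucleolar RNA host genes, which carry guide RNAs of ribosome assembly in their introns, fell together in number. This group was put together after its values were seen. Of 18 measured, 9 fell, against 2.83% of all genes, and 0 rose. In 14 the changes were negative in both pairs, and the median change was -0.31. Of all genes, 45.49% had one sign in both pairs, upward or downward, so the share negative in both is smaller. Under the alternative settings the count of falls ran from 3, with a test against a fold of 1.2, to 11, with the array letter as a block, and no setting gave a rise.

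Dancr measured 1769, 2286 and 1805 in B117P, 1033, 1197 and 935 in B117H, 2026, 2607 and 2322 in B140P and 1450.6, 1450.5 and 1460.3 in B140H. Snhg5 changed by -0.68 and -0.62 and Taf1d, which also encodes a factor of RNA polymerase I, by -0.57 and -1.02. These 3 passed in each pair. The other, dimmer probe sets of Snhg5 were not called (adjusted p = 0.635 and 0.47). Snhg3 (-0.70 and -0.64), Snhg4 (-0.71 and -0.29), Snhg8 (-0.33 and -0.58), Snhg12 (-0.55 and -0.29), Zfas1 (-0.37 and -0.27) and Gas5 (-0.27 and -0.33) passed in the average alone. Snhg3 was lost without all A (adjusted p = 0.0667) or all B arrays (0.14) and with a test against a fold of 1.2 (0.4). At 0.0144 it also missed a threshold of 0.01. The cytosolic ribosomal protein genes, the products of which are assembled on the same ribosomes, had 0 rises and 0 falls among 44 measured of 79 listed. Of all genes 2.96% rose and 2.83% fell, so counts near 0 are no contrast in a list of this size.

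**Figure D4:**
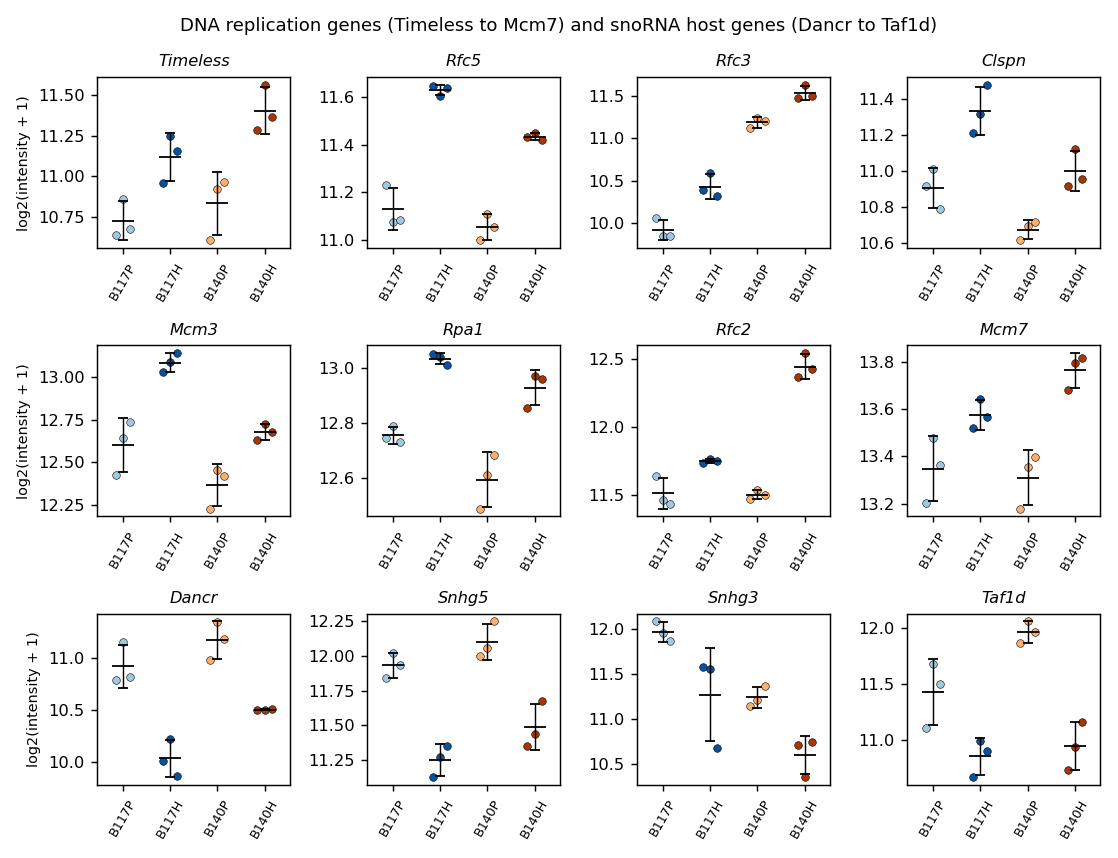
Level of 8 DNA replication genes and 4 small nucleolar RNA host genes on each array as log2(intensity + 1), with points for arrays and a bar for the mean and SD of the 3 arrays of a line. The resistant arrays lie above their parental arrays for the replication genes and below them for the host genes in both pairs. The genes shown were picked with their values known, and 3.91% of all genes had arrays apart in one direction, upward or downward.

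Genes of cholesterol synthesis and uptake had 7 shared rises and 0 falls among 26, 26.9% against 2.96% of all genes. The list's median was 0.46 in the B117 pair and 0.06 in the B140 pair, so the rises came mostly from B117H. Npc1, which lets cholesterol out of the lysosome, was the member that passed in each pair (0.55 and 0.46). Cyp51 (0.79 and 0.40), Mvd (1.41 and 0.21), Fdps (0.50 and 0.18), Pmvk (0.71 and 0.15) and Hmgcs1 (0.58 and 0.11), enzymes of the pathway, passed in the B117 pair and not in the B140 pair. The count was 5 with arrays centred on their medians, 4 without B140H A, 3 without all A or all C arrays, 2 without all B arrays and 1 with a test against a fold of 1.2.

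In fatty acid synthesis 2 of 28 genes rose and 5 fell in common (7.14% and 17.9%, against 2.96% and 2.83% of all genes). Acss2 (2.87 and 0.54) and Acly (0.61 and 0.15), which make acetyl-CoA, rose, and Elovl6 (-0.25 and -2.44), an elongase, and the dehydratase genes Hacd1 (-0.36 and -2.76) and Hacd3 (-0.27 and -0.42) fell. Acadm, which breaks fatty acids of medium length down, rose in both.

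The metallothioneins, small proteins that bind zinc and copper, fell in both pairs. Mt2 measured 13532, 14153 and 13206 in B117P, 9373, 8498 and 9710.2 in B117H, 4925, 3651 and 4109 in B140P and 1138, 1389.6 and 1289 in B140H. The fall was larger in B140H (difference of -1.16, adjusted p = 0.000938). Mt1 changed by -0.47 and -0.77 and passed in each pair, but when the _s_at and _x_at probe sets, whose probes can match several genes, were left out, another probe set stood for it and was not called (adjusted p = 0.0702). Mgst2 (0.52 and 0.70), a microsomal glutathione transferase, rose in each pair, and Gsta4 (1.05 and 0.32) and Hmox1 (0.01 and 1.35) rose in the average, so that 3 of 38 genes of the list rose and 2 fell. These shares were 7.89% and 5.26%, against 2.96% and 2.83% of all genes. Car9, a carbonic anhydrase of hypoxic cells, fell in each pair, by 0.46 and 0.88.

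Among the myeloid markers 5 of 37 fell and 2 rose (13.5% and 5.41%, against 2.83% and 2.96% of all genes). Mpo, the granule peroxidase, measured 23066, 24996 and 27884 in B117P and 15911, 17058 and 17502 in B117H, and 648, 844 and 751 in B140P against 260.3, 121 and 86.1 in B140H. Cd14, a co-receptor for bacterial lipid (-0.95 and -0.68), the Fc receptor Fcgr3 (-0.95 and -0.36), the granule protease Ctsg (-0.51 and -0.28) and Csf3r, the receptor of granulocyte growth factor (-0.58 and -0.06), were the other falls, and Adgre1 (1.87 and 0.13) and Fcgr2b (0.44 and 0.70) the rises. None of these passed in each pair. Most fits that left out a single array ended the calls of Csf3r and Fcgr2b. Centring arrays on their medians also ended that of Fcgr2b (adjusted p = 0.0557). Without array B of B140H the changes of Adgre1 were 1.87 and -0.16. The summed intensity of the 37 genes went from 120721 to 136112 in B117P down to 88542 to 95486 in B117H, but from 46786 to 52371 in B140P up to 54711 to 58657 in B140H, so the list as a whole did not move one way. Without array B of B140H 0 myeloid markers rose and 8 fell in common. Whether the markers bear on the other results was not tested.

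Among other lists, 3 of 21 B lymphoid markers rose (14.3%, against 2.96% of all genes), and 0 of 23 T and NK cell markers rose or fell. The B lymphoid rises were Il7r (1.77 and 0.53), Ighm (0.73 and 0.23) and Rag2 (1.82 and 0.23). With its probe sets averaged Ighm was not called (adjusted p = 0.53). Without the _s_at and _x_at probe sets its changes were 1.06 and -0.06. Of 64 genes of histone methylation and polycomb, 1 rose and 6 fell (1.56% and 9.38%, against 2.96% and 2.83% of all genes). The rise was that of Nsd3 (0.61 and 0.19). The falls were each mainly in 1 pair: Uty (-3.82 and -0.35), Jarid2 (-0.97 and -0.07), Sfmbt2 (-0.08 and -3.43), Setdb1 (-0.06 and -0.82), Dnmt3b (-0.02 and -0.96) and Epop (0.00 and -3.69). In these 6 falls the average passed although the change in one pair was small. For Epop, Dnmt3b, Setdb1 and Sfmbt2 the sign of that small change turned in some fits with arrays left out. The p53 targets had 0 rises and 2 falls among 26, the apoptosis regulators 2 and 1 among 33, and oxidative phosphorylation 2 and 0 among 58.

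Rises clustered at the end of chromosome 3. From Lmo4 to Srsf11, a run of 73 measured neighbours, 26 genes rose in common, 0 fell and 21 passed in each pair, which is 35.6% of the 59 genes that did so upward in the genome. Of all genes, 2.96% rose in common. The count in each pair was 15 without all A arrays, 10 without all B or all C arrays and 9 with a test against a fold of 1.2, while at least 21 genes rose in common under each setting run. The run was marked out after its values were seen and has no test. Without it, 513 genes rose in common and 38 rose in each pair.

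The run's members share little function. Ankrd13c, an ankyrin repeat protein, measured 1117, 1137 and 1129 in B117P, 2459.9, 2366 and 2135 in B117H, 1435, 1473 and 1608 in B140P and 3073, 3021 and 3022 in B140H, close to a doubling in each pair (2.05-fold and 2.02-fold). Bcl10, an adaptor of NF-kB signalling, changed by 1.14 and 0.88, Acadm by 1.01 and 0.72, Prkacb, a catalytic subunit of protein kinase A, by 1.19 and 0.67, and Cryz, a quinone reductase, by 1.11 and 1.03. Ctbs (0.92 and 0.84), Fpgt (0.99 and 0.83), Ssx2ip (0.84 and 0.90), Sh3glb1 (0.86 and 0.72), Znhit6 (0.83 and 0.68), Selenof (0.66 and 0.66), Hs2st1 (0.65 and 0.80) and Spata1 (0.87 and 0.80) rose by like amounts. Ankrd13c, Prkacb, Ssx2ip, Selenof and Hs2st1 also had dimmer probe sets without a call.

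Of the 31 genes of the run above the median level of all probe sets, 24 rose, 20 passed in each pair, 28 were positive in both, and the median change was 0.66 in either pair. Of the 42 dimmer genes 2 rose, and their medians were 0.00 and 0.07. Not every bright gene moved: Fubp1 changed by 0.04 and -0.05, Ak5 by 0.04 and 0.08, and St6galnac5 by -0.01 and -0.02. DNA copy number was not measured. Just before the run, the 2 pairs parted. Gtf2b and Pkn2 changed by -1.02 and -1.15 in B117H and by 0.81 and 0.76 in B140H, and Kyat3, described above with the kynurenine genes, lies beside them.

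**Figure D5:**
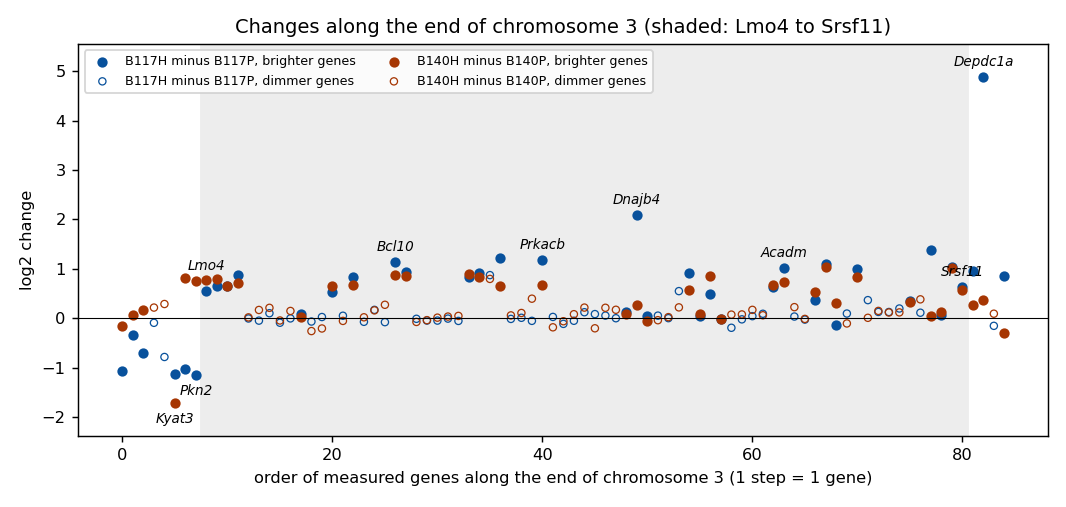
Log2 change of each measured gene along the end of chromosome 3 in the B117 and B140 pairs, in gene order, with filled points for genes above the median level and open points for dimmer ones, and the run from Lmo4 to Srsf11 shaded. The filled points of the run lie mostly above 0 in both pairs, with a median of 0.66, and Pkn2 falls in one pair and rises in the other.

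In consecutive blocks of 50 measured genes the median block held 1 shared rise and 1 shared fall. On chromosome 5 the block from Bcl7b to Actl6b held 11 shared rises, 3 of them in each pair, with block medians of -0.02 in the B117 pair and 0.34 in the B140 pair. The blocks after it, from Tfr2 to Mafk and from Tmem184a to Pms2, held 7 and 4 shared rises, 0 of them in each pair. Their medians were -0.04 and -0.02 in the B117 pair and 0.33 and 0.32 in the B140 pair. Shared falls were most frequent in the first 2 blocks of chromosome 13, with 14 each, but 2 and 1 of these passed in each pair and the block medians were -0.26 in the B117 pair against 0.05 and 0.00 in the B140 pair. At the end of chromosome 14 the block from Gpc6 to Fgf14 held 9 shared falls among 41 genes, 5 in each pair, with Abcc4 and Pcca, a subunit of propionyl-CoA carboxylase (-0.59 and -1.09; named after its values were seen), among them.

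Further probe sets of the same genes give a view that the choice of the brightest one did not use. For 56 of the 107 genes there were 115 further probe sets, of which 61 had a shared change in the same direction and 0 in the opposite one. For 610 of all shared genes there were 1178, of which 285 were called in the same direction and 1 in the opposite one, while 728 had the gene's sign in both pairs. These probe sets read the same RNA and are no replicates.

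Shared genes were brighter than others, at a median log2 level of 9.43 against 7.74 for all genes, so dim genes are under-represented among them. Just inside the threshold lay Ccdc9, Rusf1, Auh, Eif4h and Gtf2h3, with adjusted p-values of 0.0497 to 0.0499. Just outside lay Slco4a1, Tube1, Fbxl2, A630026N12Rik and Stambp, at 0.0502 to 0.0508.

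The shared calls with the largest average change that passed in 1 pair alone show how unequal the pairs can be. S100a10, the partner of annexin A2, changed by -0.24 and -5.47, Glul, glutamine synthetase, by 5.35 and 0.24, Depdc1a by 4.89 and 0.37, Uty by -3.82 and -0.35, and Hpgd, which degrades prostaglandins, by -3.79 and -0.21. At the opposite end stand genes that passed in both pairs with opposite signs: Hmgn3 (-2.48 and 2.67), Hpse (-3.51 and 2.44), F13a1 (-2.58 and 2.03), Dntt (2.002 and -1.91) and Hp (-1.61 and 3.09).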

How the data were processed

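Total RNA of 12 samples, extracted with RNeasy Midi and amplified with MessageAmp III kits per the labels' protocols, was hybridised to one-colour arrays. The deposited intensity values were summarised by RMA, per the submitters' processing notes; no source used here gives its version or the genome build. They ran from 7.65 to 36675, on a linear scale as read from the values, with array medians of 118 to 131. RMA compresses low values, and no detection calls came with them. Values were taken as log2(value + 1), so folds are on that scale. Of 45101 probe sets, 64 controls were left out and 45037 tested. The platform annotation gave 34945 of these 1 symbol, 932 several and 9160 none. Each gene is read from the brightest of its one-symbol probe sets: 18193 genes, 9010 with several probe sets, 18032 matched to the GRCm38.p6 table, which gave chromosome and gene order.

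limma 3.58.1 in R 4.3.3 (lmFit, contrasts.fit, eBayes, two-sided) was fitted on all 12 arrays with 1 coefficient per line and no letter term, with Benjamini-Hochberg adjustment over all probe sets and a threshold of 0.05, and was tested on simulated data. The median 95% interval of an average change reached a factor of 1.13 to either side; the number of arrays limits it. Lists are described by counts and medians, with no set test.

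Named are the 20 rises and 20 falls with the largest smaller pair change whose arrays do not overlap in both pairs, both Ara-C lists in full, up to 6 shared genes per direction of other lists, 5 genes on either side of the threshold, and 5 genes each called in 1 pair or in opposite directions. Some of these stand as counts only. The comparison and the 35 lists were chosen with earlier results of these data known; 20 list entries with an older symbol were matched through RefSeq synonyms. Alternatives were other pseudocounts, scalings, filters, priors, weights, probe set rules and thresholds, the letter as a block, and arrays left out.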

Additional observations from a re-analysis of the deposited data

Results flagged for a closer look

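For 63 of the 251 genes with tabulated values the change differed between the pairs by the limma test of the difference, B140 change minus B117 change, adjusted over all probe sets. Among the 40 genes with the largest shared changes these were 6. The fall was larger in B117H for Dck (4.92), Psph (0.81), Smpdl3b (0.93) and Lifr (0.9997), where the size for Dck is not exact because B117H lay near the lowest intensities. The rise was larger in B117H for Ninl (-1.63) and larger in B140H for Serinc5 (2.16). These 6 genes were called in each pair.

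Among genes called in 1 pair alone, the difference was called for S100a10 (-5.23), Glul (-5.11), Depdc1a (-4.52), Uty (3.48) and Hpgd (3.59). Among genes called in both pairs with opposite signs it was called for Hmgn3 (5.15), Hpse (5.95), F13a1 (4.61), Dntt (-3.91) and Hp (4.70). These genes were picked for unequal pairs, so their differences only describe that choice.

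In the lists on drug efflux, replication, checkpoints, cell death, the cell cycle and chaperones, the difference passed for Abcb4 (0.70), Abcd2 (-1.23), Rad1 (1.24), Gadd45b (0.83), Bcl2 (1.02), Casp6 (-0.74), Cenpe (0.50), E2f6 (-0.67), Dnajb4 (-1.82), Cct5 (0.73), Gins3 (-0.47) and Rfc2 (0.70). In the metabolic and stress lists it passed for Psat1 (-0.72), Mvd (-1.20), Acss2 (-2.33), Hacd1 (-2.39), Elovl6 (-2.19), Scd2 (0.57), Acsl5 (0.52), Gsta4 (-0.72), Hmox1 (1.35), Mt2 (-1.16), Slc36a4 (-2.91) and Nmnat3 (-0.84). In the list of histone methylation and polycomb it passed, beside Uty, for Sfmbt2 (-3.35), Jarid2 (0.90), Setdb1 (-0.76), Dnmt3b (-0.95) and Epop (-3.69). In the lists of cell type markers, interferon response and adhesion it passed for Adgre1 (-1.74), Mpo (-1.82), Sox4 (-0.86), Rag2 (-1.60), Itgax (-2.92), Pdgfrb (-1.04), Trim30a (0.79), Cxcl10 (0.82), Selplg (-0.56) and Itgb5 (0.84). Among genes named after their values were seen, or lying in or beside the chromosome 3 run, it passed for Lcp2 (1.69), Pcca (-0.50), Wls (-1.14), Gtf2b (1.83), Pkn2 (1.91), Cth (-1.34), Pdlim5 (0.89) and Gbp2 (1.07).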

How the results depend on the processing

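The settings of the report gave 1053 shared genes, 107 called in each pair in one direction and 336 with a difference between the pairs. These counts were 575, 49 and 162 at an adjusted p under 0.01 and 175, 23 and 87 with a test against a fold of 1.2. Without all A arrays they were 540, 49 and 166, without all B arrays 326, 31 and 103, and without all C arrays 300, 22 and 79, with 8 arrays left. On leaving out single arrays they ran from 778 to 1071, from 66 (without B140P B) to 106, and from 232 to 316. The other settings stayed within 1.5 times the main counts, apart from the block. With quantile normalization applied again they were 1094 shared genes and 115 called in each pair, and with probe sets averaged per gene 1299 and 154.

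The correlation of same-letter deviations from the line means was over 0.1 in 16 of 18 pairs of arrays (-0.043 to 0.587), and 30 of 36 pairs of different letters were below 0. Within the lineages it was 0.587, 0.360 and 0.560 for B140 and 0.555, 0.028 and 0.392 for B117. The rule asked for over 0.1 in every pair and the labels name no shared batch, so the letter stayed out of the model, although most same-letter values give a hint, from the data and not the design, of a shared source. With the letter as a replicate block 1506 genes were shared, all of the 1053 among them, 199 were called in each pair and 513 differed between pairs. Of the DNA replication genes 19 then rose, 5 of them in each pair.

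No called average of a named gene changed sign under any setting. The change in 1 pair did so for some genes, which ended their shared state while the average still passed. Without B117P B the changes of Epop were 0.01 and -3.69, and without B140P B those of Itgax were 2.96 and -0.06. Setdb1, Dnmt3b, Sfmbt2, Hmox1, Bcl2, Abcd2 and Elovl6 were among the others. Of the gene-and-setting values of the average alone, 5843 kept their side of the threshold, 840 lost the call and 69 gained one. Of the 40 genes with the largest shared changes, the calls of Gpr183, Fkbp11, Ets2, Gpr155, Rab11fip2 and Snhg3 ended under some setting, as given with each. The cause was not tested.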
